A study of Mus musculus with 12 samples.

Results

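The genes of oxidative phosphorylation were compared between 4 lines of murine BrafV600E melanoma cells. They were chosen by name, as every gene beginning with Nduf, Uqcr, Cox4 to Cox8 or Atp5, together with Sdha, Sdhb, Sdhc and Sdhd. The rule found 91 of 30705 gene names, and no measured value entered it. By respiratory complex these were 7 core and 29 accessory subunits of complex I, 6 assembly factors of complex I, 4 subunits of complex II, 8 of complex III, 20 genes of complex IV and 17 of complex V. Not all of them code for subunits, since the Ndufaf genes code for assembly factors, Cox7a2l for a factor of respiratory supercomplexes, and Atp5s and Atp5sl for proteins that are not part of the ATP synthase.

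RNA-seq was performed on 12 samples, 3 each of a scramble control and of the knockouts ptgs1-KO, ptgs2-KO and ptges-KO, to learn what loss of each enzyme of prostaglandin E2 synthesis changes. All 4 lines came from a melanoma of a C57BL/6 mouse that was Braf+/LSL-V600E, Tyr::CreERT2+/o as well as p16INK4a-/-, so the oncogenic Braf allele, the tyrosinase-driven Cre and the loss of p16INK4a were present in the controls too. The knockouts were made with CRISPR/CAS9 kits, selected with puromycin and subcloned by limiting dilution, and the RNA of each line came from 3 subclones. Cells were grown in culture without further treatment, and the spread behind each p-value is that between the samples of a line, in which differences between subclones and between libraries cannot be told apart.

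Electrons enter the respiratory chain through complex I from NADH and through complex II from succinate, and pass by complex III and cytochrome c to complex IV, which reduces oxygen. The proton gradient built on the way drives the ATP synthase, complex V. Nuclear genes code for nearly all of the subunits and mitochondrial DNA for the rest, so the mRNAs of the nuclear subunits are usually made in step, and melanomas with mutant Braf are known to differ in how far they rely on this pathway.

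The promoters of these genes hold short sequences read by NRF1, by ETS factors such as GABP, and by YY1, which are known to drive nuclear genes of mitochondria. RefSeq promoters of GRCm38.p6, from 250 bases before to 50 bases after the start, were at hand for 75 of the 91 genes, 3 of them through an older symbol. The 16 others included Atp5a1, Cox4i1, Cox4i2, Cox6a2, Cox6c, Cox8c, Ndufa2, Ndufa4l2, Ndufaf6, Ndufb9, Ndufs1, Sdhc, Uqcrb, Uqcrc2 and Uqcrq. Both strands were searched for the letters of NRF1 (GCGCA, any base, then GCGC), for CCGGAAG of ETS factors and for those of YY1 (AAGATGG followed directly by CGGC). The NRF1 letters stood in 19 of the 75 promoters (25.3%, against 5.19% of all 27025 promoters and 7.17% of those of protein-coding genes). The ETS letters stood in 17 (22.7%, against 9.93% and 12.9%), and the YY1 letters in 5 (6.67%, against 0.755% and 1.06%). In all, 36 of the 75 promoters (48%) held at least 1 of the 3.

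Of the 16 genes that differed in at least 1 of the comparisons described further on, 15 had a promoter and 8 of those (53.3%) held a match. For these 8 genes the matches before the start are shown, since the mRNA levels of these genes are followed through the text. A match after the start, or within 8 bases of either end of the stretch before it, would be counted but not listed. Capitals mark the match, with 8 bases on either side, read 5′ to 3′ on the strand of the gene. A match is a description and not a site that was tested.
Ndufb4, NRF1, chr16:37654542-37654567, minus strand: gaagcagtGCGCACGCGCagaatacg
Ndufb4, NRF1, chr16:37654430-37654455, minus strand: ttgtgcgcGCGCAGGCGCacttcctg
Ndufb4, NRF1, chr16:37654373-37654398, minus strand: tcatatccGCGCAGGCGCagatgtgc
Cox6a1, NRF1, chr5:115349103-115349128, minus strand: ggaacgggGCGCATGCGCgctctcgc
Cox6a1, NRF1, chr5:115349058-115349083, minus strand: gataaagtGCGCAGGCGCtggagttc
Cox6a1, ETS, chr5:115348960-115348982, minus strand: catttccgCTTCCGGcgcgccgg
Ndufa11, NRF1, chr17:56717694-56717719, plus strand: tgcactgcGCGCATGCGCgcacgcct
Ndufb6, ETS, chr4:40279639-40279661, minus strand: tccttgttCTTCCGGtcccctcc
Ndufaf4, NRF1, chr4:24897962-24897987, plus strand: agatgtctGCGCATGCGCctgtgcgg
Sdha, NRF1, chr13:74350321-74350346, minus strand: tttacaggGCGCAGGCGCaccaccac
Sdha, NRF1, chr13:74350278-74350303, minus strand: ggcgtgttGCGCAGGCGCagaatctt
Sdhd, NRF1, chr9:50603911-50603936, minus strand: gctggggtGCGCACGCGCggtggcag
Sdhd, ETS, chr9:50603881-50603903, minus strand: tctcctgcCTTCCGGttcacgct
Atp5e, ETS, chr2:174464189-174464211, minus strand: ggccacagCTTCCGGtagccgct
The NRF1 letters thus stood before Ndufb4, Cox6a1 and Ndufa11, which were lower in a knockout than in scramble cells. They also stood before Ndufaf4, Sdha and Sdhd, which with all samples were called between knockouts only.

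The values are taken as RPKM, reads scaled to the length of the transcript and to the mapped reads of the sample, the unit given for a heat map of the study, which elsewhere speaks of normalized counts. Levels set side by side between genes rest on that unit. Their sums were nearly equal between samples, from 878504 to 903881. The smallest steps of the values put the depth of the samples at 0.863 to 1.08 of the median sample, while the absolute depth is unknown. The targeted genes followed the labels. Ptgs1, which codes for COX-1, was at 14.3 to 16.9 RPKM in ptgs1-KO and at 138 to 173 RPKM in the other samples, and Ptgs2, which codes for COX-2, was at 76.1 to 84.6 RPKM in ptgs2-KO and at 502 to 807 RPKM elsewhere. Ptges, which codes for mPGES-1, was at 34.8 to 41.0 RPKM in ptges-KO and at 51.5 to 79.8 RPKM elsewhere. Of 8 melanocyte markers, Mlana, Tyrp1, Dct and Sox10 were listed at 0 in all samples and only Mitf reached a mean of 1 RPKM. Dcn and Lum of fibroblasts, Cd3e of T cells, Kdr of endothelium and Epcam of epithelium were listed at 0 as well. Pdgfra of the fibroblast list had a mean of 6.91 RPKM (3.36 to 11.05), above Mitf at 2.30 RPKM, and Cd68 of the immune list had 1.13 RPKM. The other markers of these lists had means under 1 RPKM, the highest being Krt8 of epithelium at 0.741 RPKM, above Pmel at 0.52 RPKM.

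Samples of the same line did not stand together for these genes, and this bears on every comparison. In ptgs2-KO 1, 80 of the 83 genes tested were below the mean of the other two samples of the line, with a median log2 difference of -0.43. In ptges-KO 1, 76 of 83 were below, with a median of -0.37, while scramble 1 was above the other scramble samples by a median of 0.19. Over all genes the medians of these 3 samples were 0.04, 0.08 and 0. The plot of the 83 genes by sample shows the spread.

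**Figure D1:**
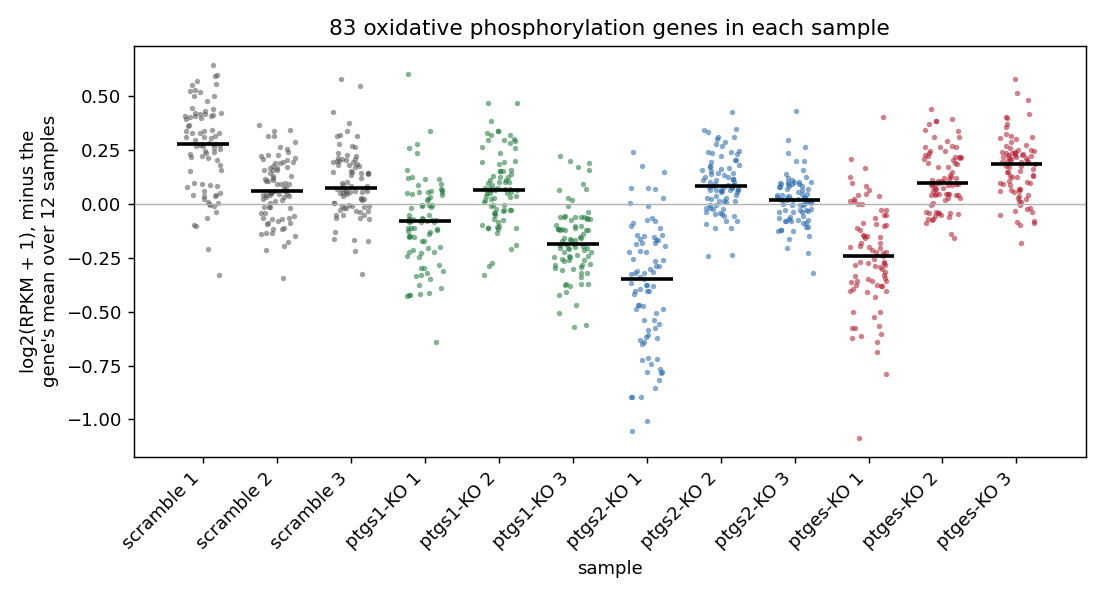
Each point is 1 of the 83 oxidative phosphorylation genes tested, the y axis is its log2(RPKM + 1) in the sample minus its mean over the 12 samples, and the black lines are medians of the 83 genes. The medians run from -0.35 in ptgs2-KO 1 and -0.24 in ptges-KO 1 to 0.28 in scramble 1, and those of ptgs2-KO cells alone from -0.35 to 0.08.

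The difference went with the length of the mRNA, which is short for most subunits. Among the 41 genes with transcripts under 758 bases the median was -0.54 in ptgs2-KO 1 and -0.53 in ptges-KO 1, against -0.32 and -0.25 among the 42 longer ones. Spearman's rho with length was 0.50 and 0.51 over the 83 genes and 0.60 and 0.59 over 10671 genes of all kinds, given as a description, since the genes of a sample share a library. Within lines, the SD of the log2 values had a median of 0.266 for the short and of 0.15 for the longer genes, against 0.137 over all genes tested. The most variable were Ndufb2, Ndufb4, Uqcrq and Atp5l, with SDs of 0.455, 0.446, 0.423 and 0.420, and the least variable was Atp5g3, with 0.054. The ribosomal RNA entries Rn45s and AK155692 together held 13.5% of the summed values in ptgs1-KO 3, 4.79% in ptgs2-KO 1 and 0.528% to 3.08% in the other samples. The part of length and of ribosomal RNA in the results was not tested, and counts are therefore also given without ptgs2-KO 1 and ptges-KO 1, and without these and ptgs1-KO 3, both alternatives chosen after the data were seen.

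**Figure D2:**
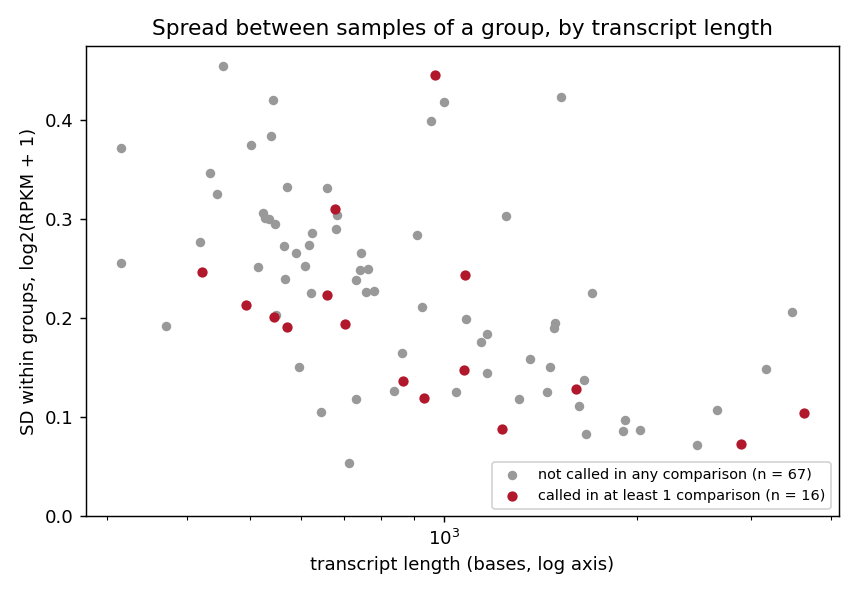
The x axis is the transcript length in bases on a log axis and the y axis the SD of log2(RPKM + 1) within lines, for the 83 genes tested, with those called in at least 1 comparison in red. Short genes spread more between samples of a line, with a Spearman's rho of -0.60 between length and SD, and called genes lie across the whole range.

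Oxidative phosphorylation genes were abundant in all 4 lines. Of the 91 genes, 83 had a mean of at least 1 RPKM and were above 0 in every sample, and they alone were tested. Their summed values were 13097 ± 869.9 RPKM (SD, n = 3) in scramble, 11398 ± 1128 in ptgs1-KO, 11348 ± 1666 in ptgs2-KO and 12041 ± 1422 in ptges-KO cells. Together the 91 genes held 1.07% of all values in ptgs2-KO 1 and 1.6% in scramble 1, the lowest and the highest share. The catalytic beta subunit of the ATP synthase, Atp5b, was the most abundant of them at 1348 to 1678 RPKM, and the lowest and highest samples were both of ptgs1-KO cells. Complex V held 4984 ± 203 RPKM in scramble cells, complex IV 3344 ± 279, complex I 3013 ± 279, complex III 1243 ± 95.8 and complex II 457 ± 10.8. The 6 assembly factors of complex I together held only 56.3 ± 6.87 RPKM.

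Of the tissue-specific isoforms of complex IV none reached the level that was tested, while the common form of each was abundant. Cox6b2, Cox7b2, Cox8b and Cox8c were listed at 0 in all 12 samples. Cox4i2, an isoform known from lung and low oxygen, was above 0 in 2 samples only, at 0.18 RPKM in scramble 1 and 0.10 RPKM in ptgs1-KO 3. Cox6a2, a heart and muscle form, reached 0.30 RPKM at most, Ndufa4l2, a gene known to be induced by hypoxia, 0.28 RPKM, and Cox7a1, another muscle form, 2.20 RPKM in ptgs1-KO 2. Their counterparts were far higher in every sample. Cox6a1 ranged from 473 to 823 RPKM, Cox4i1 from 335 to 634, Cox8a from 223 to 375, Cox6b1 from 151 to 269, Ndufa4 from 138 to 226, Cox7b from 45 to 125 and Cox7a2 from 41.7 to 98.9 RPKM. The lowest sample was ptgs2-KO 1 for all of these but Cox6a1, where it was ptges-KO 1.

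Against scramble cells few oxidative phosphorylation genes passed the test in any knockout. At a Benjamini-Hochberg adjusted p under 0.05 (limma on log2(RPKM + 1), all 11282 genes tested), 1 of the 83 genes differed in ptgs1-KO cells and was lower, where 9.26% of all genes differed, 4.65% higher and 4.61% lower. In ptgs2-KO cells 4 differed, all lower, where 11.1% of all genes did, 5.97% higher and 5.17% lower. In ptges-KO cells 4 were lower and 1 was higher, where 26.3% of all genes differed, 11.9% higher and 14.4% lower. The shares of the 83 genes were thus 1.20%, 4.82% and 6.02%. Over the 4 lines together 7 of the 83 differed by the moderated F test, where 38.6% of all genes did. The median SE of a log2 fold change was 0.15 for these genes and 0.11 for all genes, which makes a call harder to reach.

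Below the threshold most of the genes leaned downward. The log2 fold change was negative for 75 of the 83 genes in ptgs1-KO, 68 in ptgs2-KO and 59 in ptges-KO cells, with medians of -0.21, -0.20 and -0.12, where the medians over all genes were 0.01, 0.01 and -0.03. The 3 comparisons share the scramble samples, of which scramble 1 was high. Groups did not overlap for 28 lower and 2 higher genes in ptgs1-KO cells (all genes, 13.2% lower and 13.7% higher), for 26 and 3 in ptgs2-KO cells (15.8% and 19.4%) and for 16 and 5 in ptges-KO cells (23.0% and 20.3%). The shift was larger among short mRNAs, with medians of -0.25, -0.36 and -0.18 against -0.13, -0.08 and -0.04 among longer ones. With trends in length and GC content removed the medians of the 83 genes were -0.14, -0.05 and -0.03, and without ptgs1-KO 3, ptgs2-KO 1 and ptges-KO 1 they were -0.15, -0.07 and 0.

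The number of calls turned on the samples kept. In ptgs1-KO cells 15 genes were called lower without ptgs2-KO 1 and ptges-KO 1 (18.1% of the 83, where 12.3% of all genes were called), and 10 lower and 1 higher without ptgs1-KO 3 as well (13.3%, against 14.8%). Leaving out ptgs2-KO 1 and ptges-KO 1 does not change the fold changes of ptgs1-KO against scramble, only the spread pooled over the lines. These samples were left out after the same genes were seen to be low in them, so the adjusted p of both settings are likely too small. Both settings named Atp5f1, Atp5g1, Atp5g3, Atp5k, Cox5b, Ndufa8, Ndufab1, Ndufc1 and Uqcrh as lower, among which Ndufc1 had the largest change in either, -0.62 ± 0.13 (SE) without 2 samples and -0.54 ± 0.14 without 3. In ptgs2-KO cells the settings gave 1 lower and 1 higher gene (2.41%, against 8.89%), and 7 lower and 2 higher (10.8%, against 14%). In ptges-KO cells they gave 4 and 4 (9.64%, against 27.1%), and 5 and 5 (12%, against 32.6%). Sdhb, the iron-sulfur subunit of complex II, was then higher in ptgs2-KO cells, by 0.39 ± 0.08 with an adjusted p of 0.0139 without 2 samples, while with all samples its log2 fold change was 0.26 ± 0.13 with an adjusted p of 0.209. These genes were named after their values were seen. Single samples moved the counts too. In ptgs1-KO cells the count was 4 without ptgs2-KO 1 or ptges-KO 1 and 2 without ptgs1-KO 3. Over all 11282 genes it was 1112, 1163 and 1008, against 1045 with all samples. In ptgs2-KO cells the count was 0 without scramble 1 or ptgs2-KO 1, 1 without scramble 2 or scramble 3, 2 without ptgs2-KO 3 or ptges-KO 2, and 8 without ptges-KO 1. Over all genes it was 722, 822, 771, 829, 802, 1015 and 1443 in that order, against 1257 with all samples. In ptges-KO cells the count was 1 without scramble 3, 2 without ptges-KO 2, 3 without scramble 1 or ptges-KO 1, and 9 without ptgs2-KO 1. Over all genes it was 2070, 1936, 2241, 2746 and 3081 in that order, against 2969 with all samples.

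**Figure D3:**
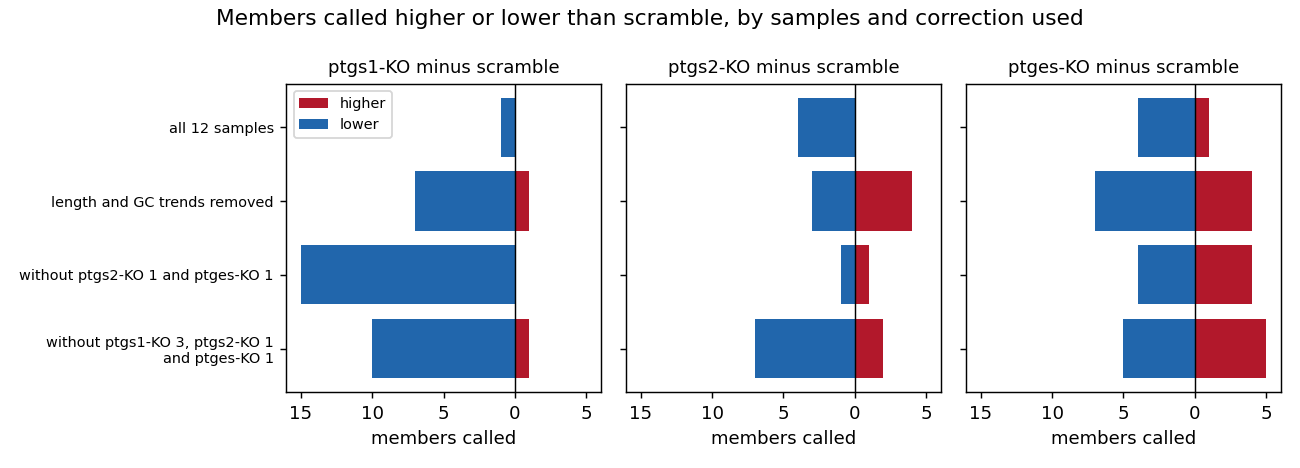
The bars give the number of the 83 genes called higher (red, to the right) or lower (blue, to the left) in a knockout than in scramble (adjusted p under 0.05), for each knockout and 4 choices of samples or correction. In ptgs1-KO cells the lower calls go from 1 with all samples to 15 without ptgs2-KO 1 and ptges-KO 1. Neither of these samples belongs to the lines compared there, and over all genes the lower calls go from 520 to 709.

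By complex, the lowest median in each knockout was that of complex IV, with -0.28, -0.38 and -0.25 over its 12 tested genes for loss of ptgs1, ptgs2 and ptges in that order. Complex III stood at -0.22, -0.35 and -0.22 over 8 genes. The accessory subunits of complex I stood at -0.24, -0.32 and -0.19, and the core subunits, which carry the flavin and the iron-sulfur clusters and have longer mRNAs, at -0.13, -0.13 and -0.09. Complex V stood at -0.22, -0.10 and -0.07. The 4 genes of complex II stood at 0.03, 0 and -0.01, close to the medians of all genes. These are descriptions without a test of the complexes against each other. In the alternatives tried, the medians of complex I, III and IV against scramble cells stayed below 0 in every knockout, while those of complex II changed sign in every knockout and those of complex V did so in ptgs2-KO and ptges-KO cells.

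**Figure D4:**
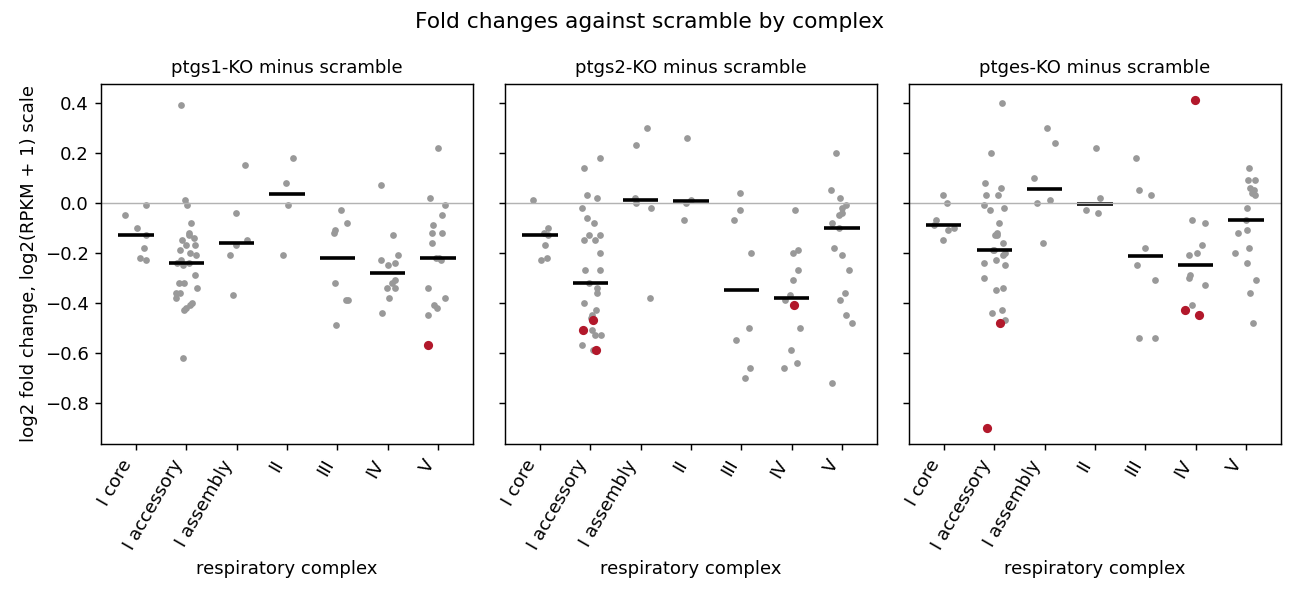
Each point is 1 of the 83 genes tested, placed by complex on the x axis and by its log2 fold change against scramble on the y axis, with called genes in red and medians as black lines. Most points lie below 0 except in complex II and, in ptgs2-KO and ptges-KO cells, among the assembly factors. In ptgs1-KO cells 5 of the 6 assembly factors lie below 0. Red points are few.

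Among the core subunits of complex I none was called in any of the 6 comparisons with all samples. Ndufs3, one of them, was called higher in ptges-KO than in ptgs1-KO cells without ptgs2-KO 1 and ptges-KO 1, at 0.31 ± 0.08 (limma, adjusted p = 0.0104). Ndufs1, which carries iron-sulfur clusters, was the least abundant of them at 32.6 to 48.3 RPKM.

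The accessory subunits of complex I held most of the calls of that complex. The most abundant of them was Ndufa12, at 136 to 238 RPKM. At the other end, Ndufs5 was listed at 3.11 to 7.02 RPKM. Of its stretches of 50 bases 41.2% also occur in BC002163, which was at 19.2 to 37.1 RPKM, and reads of the 2 cannot be told apart there.

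Ndufb4 showed the largest change of all oxidative phosphorylation genes against scramble cells. Its values were 179, 147 and 153 RPKM in scramble, 113, 158 and 92.1 in ptgs1-KO, 68.5, 140.3 and 121 in ptgs2-KO, and 53.1, 107 and 107 in ptges-KO cells. All ptges-KO and all ptgs2-KO samples were below the scramble samples, while ptgs1-KO 2 was among them. It fell by 0.90 ± 0.29 (SE) on the log2 scale in ptges-KO cells (limma, adjusted p = 0.0374). The call was lost without any 1 of the scramble samples, ptgs1-KO 1 or ptges-KO 1, with log2 fold changes of -0.96 to -0.56 and adjusted p of 0.0501 to 0.13. In ptgs2-KO cells it was -0.59 ± 0.29 with an adjusted p of 0.212. The gene lies on the minus strand at chr16:37647170-37654453 (GENCODE, GRCm38) and shares 37% of its stretches of 50 bases with other genes, most with Ndufb4c.

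Ndufb9 was lower in both ptgs2-KO and ptges-KO cells. It stood at 112, 96.2 and 111 RPKM in scramble, 78.3, 94.5 and 81.7 in ptgs1-KO, 64.4, 90.5 and 76.6 in ptgs2-KO, and 63.8, 77.0 and 89.3 in ptges-KO cells. No knockout sample reached the scramble samples. It fell by 0.47 ± 0.14 in ptgs2-KO (adjusted p = 0.043) and by 0.48 ± 0.14 in ptges-KO cells (limma, adjusted p = 0.0212), and stood at -0.32 ± 0.14 in ptgs1-KO cells with an adjusted p of 0.169. The call in ptgs2-KO cells was lost without any 1 of the scramble samples, ptgs1-KO 3, ptgs2-KO 1, ptgs2-KO 3 or ptges-KO 2 (-0.54 to -0.35, adjusted p of 0.0502 to 0.152). That in ptges-KO cells was lost without scramble 1, scramble 3, ptges-KO 1 or ptges-KO 2 (-0.49 to -0.35, adjusted p of 0.0538 to 0.0751). Ndufb9 lies on the plus strand at chr15:58933756-58939488 and shares 23.4% of its stretches of 50 bases with Gm49356.

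The accessory subunits Ndufa11 and Ndufb6 were lower in ptgs2-KO cells. Ndufa11 stood at 13.4, 11.8 and 10.8 RPKM in scramble and at 5.91, 8.92 and 8.21 in ptgs2-KO cells, with 9.26, 9.58 and 7.32 in ptgs1-KO and 8.70, 8.93 and 11.1 in ptges-KO cells. Only in ptges-KO cells did the values overlap those of scramble. It fell by 0.59 ± 0.15 in ptgs2-KO cells (limma, adjusted p = 0.022), and the call was lost without scramble 1, scramble 2 or ptgs2-KO 1 (-0.60 to -0.44, adjusted p of 0.0623 to 0.0948). With trends in length and GC content removed it was lost as well, at -0.28 with an adjusted p of 0.0912. Ndufb6 stood at 62.0, 57.4 and 52.2 RPKM in scramble, 45.3, 52.7 and 36.1 in ptgs1-KO, 35.2, 45.2 and 39.1 in ptgs2-KO, and 36.3, 44.8 and 54.4 in ptges-KO cells. Each of the other two knockouts had 1 sample within the scramble range. Ndufb6 fell by 0.51 ± 0.15 in ptgs2-KO cells (limma, adjusted p = 0.0483). That call was lost without any 1 of the scramble samples, ptgs1-KO 1, ptgs2-KO 1, ptgs2-KO 3 or ptges-KO 2 (-0.58 to -0.43, adjusted p of 0.0611 to 0.155).

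Ndufv3, an accessory subunit of the NADH-binding arm of complex I, went the other way. It stood at 61.8, 44.8 and 48.7 RPKM in scramble, 49.5, 47.2 and 34.8 in ptgs1-KO, 34.1, 46.1 and 43.2 in ptgs2-KO, and 66.2, 68.1 and 70.2 in ptges-KO cells. The 3 ptges-KO samples were the highest of all 12 and lay close together. Ndufv3 exceeded its ptgs2-KO level in ptges-KO cells by 0.73 ± 0.15 on the log2 scale (limma, adjusted p = 0.00475) and its ptgs1-KO level by 0.64 ± 0.15 (adjusted p = 0.00567). Both calls were kept whichever sample was left out, with log2 fold changes of 0.60 to 0.81 and 0.49 to 0.73. Against scramble cells the log2 fold change of 0.40 ± 0.15 had an adjusted p of 0.0613, and with trends in length and GC content removed it was called, at 0.61 ± 0.14 (adjusted p = 0.00436). The gene lies on the plus strand at chr17:31520115-31531331. Its mRNA is among the short ones, at 493 bases, and ptges-KO 1, low for most short mRNAs, was not low for it.

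Ndufb5, which was higher in ptges-KO than in ptgs1-KO cells, was less sharply separated. It stood at 48.6, 58.5 and 65.2 RPKM in ptges-KO and at 36.2, 50.4 and 35.9 RPKM in ptgs1-KO cells, with 43.9 to 56.6 in scramble and 39.1 to 59.1 in ptgs2-KO cells. The values of ptgs1-KO 2 and ptges-KO 1 crossed, although the log2 difference of 0.49 ± 0.17 passed the test (limma, adjusted p = 0.0411). The call was lost without scramble 3, ptgs1-KO 1, ptgs1-KO 3, ptgs2-KO 3, ptges-KO 2 or ptges-KO 3 (0.39 to 0.49, adjusted p of 0.0516 to 0.15).

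The assembly factors of complex I, which do not stay in the finished complex, were low and uneven. Ndufaf2 was the most abundant at 11.1 to 25.9 RPKM and Ndufaf5 the least at 3.34 to 5.39 RPKM. Ndufaf4 stood at 10.6, 9.21 and 9.47 RPKM in scramble, 8.46, 9.36 and 7.92 in ptgs1-KO, 11, 12.1 and 11.8 in ptgs2-KO, and 8.79, 10.8 and 9.67 in ptges-KO cells. All ptgs2-KO samples were above all samples of the other lines. Ndufaf4, on the plus strand at chr4:24898083-24905001, was higher in ptgs2-KO than in ptgs1-KO cells by 0.40 ± 0.10 (limma, adjusted p = 0.0109), a call kept whichever sample was left out, and against scramble cells its log2 fold change was 0.23 ± 0.10 with an adjusted p of 0.153. Ndufaf2 stood at 16.6, 23.6 and 25.9 RPKM in ptges-KO and at 11.1, 16.1 and 14.9 RPKM in ptgs1-KO cells, which did not overlap. The difference of 0.61 ± 0.21 on the log2 scale (limma, adjusted p = 0.0431) was lost without scramble 2, ptgs1-KO 1, ptgs1-KO 3, ptgs2-KO 3, ptges-KO 2 or ptges-KO 3 (0.46 to 0.66, adjusted p of 0.0542 to 0.166).

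Complex II, which is also an enzyme of the TCA cycle, did not share the downward lean. Sdha, its flavoprotein subunit, stood at 164, 163 and 174 RPKM in scramble, 191, 186 and 190.5 in ptgs1-KO, 174, 168 and 157 in ptgs2-KO, and 176, 162 and 151 in ptges-KO cells. The ptgs1-KO samples were the 3 highest of the 12. Sdhd, a membrane anchor, was ordered the other way, with 98.7, 108 and 92.4 RPKM in ptgs1-KO cells against 118, 112 and 116 in scramble, 99.4, 115 and 115 in ptgs2-KO and 114, 115 and 120.1 in ptges-KO cells. Between ptges-KO and ptgs1-KO cells Sdha was lower by a log2 difference of -0.22 ± 0.07 (limma, adjusted p = 0.0398) and Sdhd higher by 0.22 ± 0.08 (adjusted p = 0.0487). Against scramble cells neither passed in ptgs1-KO cells, with 0.18 ± 0.07 (adjusted p = 0.149) for Sdha and -0.21 ± 0.08 (adjusted p = 0.134) for Sdhd, while both did with trends in length and GC content removed, at 0.18 and -0.15 (adjusted p = 0.0292 and 0.0307). The Sdha call was kept only without ptgs2-KO 1, ptgs2-KO 3 or ptges-KO 1, and the loss of any other sample gave -0.23 to -0.16 with adjusted p of 0.0519 to 0.166. That of Sdhd was kept only without ptgs1-KO 2 or ptgs2-KO 1, and was 0.17 to 0.24 with adjusted p of 0.0553 to 0.143 otherwise. Sdhc, the other anchor, was the least abundant subunit at 59.8 to 88.0 RPKM. It was not called with all samples. Without ptgs2-KO 1 and ptges-KO 1 it was called higher in ptges-KO cells than in scramble, at 0.28 ± 0.08 (limma, adjusted p = 0.0254). Without ptgs1-KO 3 as well it was called at 0.28 ± 0.08 (adjusted p = 0.0182).

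With all samples, no gene of complex III was called in any of the 6 comparisons. The core protein Uqcrc1 was its most abundant member at 184 to 239 RPKM and showed log2 fold changes against scramble of -0.07 to 0.03, while Uqcrfs1, the Rieske iron-sulfur protein, was the least abundant at 59.1 to 94.9 RPKM. Uqcrh, a hinge protein, was at 221 to 244 RPKM in scramble and at 152 to 179 in ptgs1-KO cells without overlap, at -0.49 ± 0.20 with an adjusted p of 0.148 (limma). It was called lower there without ptgs2-KO 1 and ptges-KO 1, at -0.49 ± 0.08 with an adjusted p of 0.00161, where only the pooled spread had changed. Without ptgs1-KO 3 as well it was called at -0.45 ± 0.08 with an adjusted p of 0.00462. Without these 3 samples Uqcr11, Uqcrq and Uqcrh were also called lower in ptgs2-KO cells, at -0.41, -0.35 and -0.28 (limma, adjusted p = 0.0399, 0.0271 and 0.0353).

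In complex IV the clearest change was that of Cox5b, a nuclear subunit on the matrix side. It stood at 239, 203 and 225 RPKM in scramble, 170.3, 189 and 166 in ptgs1-KO, 144, 175 and 185 in ptgs2-KO, and 149, 175 and 169 in ptges-KO cells. All 9 knockout samples were below all 3 scramble samples. Cox5b fell by 0.43 ± 0.10 in ptges-KO cells (limma, adjusted p = 0.00853) and by 0.41 ± 0.10 in ptgs2-KO cells (adjusted p = 0.0233), and was at -0.34 ± 0.10 with an adjusted p of 0.0588 in ptgs1-KO cells. The call in ptges-KO cells was kept whichever sample was left out (-0.50 to -0.36, adjusted p up to 0.04). That in ptgs2-KO cells was lost without scramble 1, scramble 3 or ptgs2-KO 1 (-0.40 to -0.30, adjusted p of 0.071 to 0.101). Between knockouts the differences were -0.09 to -0.03 with all samples, with none past the threshold. With trends in length and GC content removed, Cox5b was lower in ptges-KO than in ptgs1-KO and ptgs2-KO cells. The differences there were -0.20 and -0.14 (limma, adjusted p = 0.00552 and 0.0475). In that setting it was also called lower in ptgs1-KO cells than in scramble, at -0.24 (adjusted p = 0.00371). The gene lies on the plus strand at chr1:36691449-36693681, and of its stretches of 50 bases 25.9% also occur in Gm11273.

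Cox6a1, the most abundant gene of complex IV, moved in the same direction. It stood at 823, 691 and 711 RPKM in scramble, 655, 630.3 and 483 in ptgs1-KO, 484, 635 and 589 in ptgs2-KO, and 473, 574 and 588 in ptges-KO cells. Again no knockout sample reached the scramble samples. It fell by 0.45 ± 0.14 in ptges-KO cells (limma, adjusted p = 0.0299), a call lost without scramble 1, scramble 3, ptges-KO 1 or ptges-KO 2 (-0.49 to -0.35, adjusted p of 0.0534 to 0.112). With trends in length and GC content removed the call was lost as well, at -0.21 with an adjusted p of 0.109.

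Cox7a2l, which helps to join complexes III and IV, was, with all samples, the only one of the 83 genes called higher than in scramble cells. It stood at 138, 122 and 123 RPKM in scramble, 131, 145 and 127 in ptgs1-KO, 107, 136 and 135 in ptgs2-KO, and 148, 181 and 182 in ptges-KO cells. The ptges-KO samples were the 3 highest, with ptges-KO 1 just above ptgs1-KO 2. In ptges-KO cells it exceeded the level of scramble by 0.41 ± 0.11 on the log2 scale (limma, adjusted p = 0.0152), that of ptgs2-KO by 0.44 ± 0.11 (adjusted p = 0.0151) and that of ptgs1-KO by 0.34 ± 0.11 (adjusted p = 0.0331). Each call was lost without ptges-KO 2 or ptges-KO 3. The first was also lost without scramble 2 or scramble 3 (0.36 to 0.38 over these samples, adjusted p of 0.0565 to 0.0663), the second without ptgs2-KO 1 (0.33 to 0.39, 0.0645 to 0.0707) and the third without ptgs1-KO 1 or ptgs1-KO 3 (0.29 to 0.32, 0.0873 to 0.124). The gene lies on the minus strand at chr17:83501918-83517330 and shares 19.8% of its stretches of 50 bases with Gm6969. The paralog of Cox7a2l, Cox7a2, the least abundant tested gene of complex IV, had a log2 fold change of -0.30 ± 0.22 in ptges-KO cells with an adjusted p of 0.351.

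In complex V the calls fell on a stalk subunit and on small subunits of the rotor. The catalytic Atp5b had log2 fold changes of -0.05 to 0.03 against scramble cells, each with an SE of 0.10. Atp5f1, subunit b of the peripheral stalk that holds the head in place, stood at 218, 201 and 194 RPKM in scramble, 137, 152 and 124 in ptgs1-KO, 209, 248 and 249 in ptgs2-KO, and 160.0, 184 and 188 in ptges-KO cells. The ptgs1-KO samples were the 3 lowest of the 12, and ptges-KO samples came next, below all scramble samples. Atp5f1 fell by 0.57 ± 0.10 in ptgs1-KO cells (limma, adjusted p = 0.00269), the only call of that comparison with all samples. It was higher in ptgs2-KO than in ptgs1-KO cells by 0.77 ± 0.10 (adjusted p = 0.000102). Both of these calls were kept whichever sample was left out, with log2 fold changes of -0.64 to -0.49 and 0.69 to 0.85. Against scramble cells it was at 0.20 ± 0.10 in ptgs2-KO (adjusted p = 0.214) and at -0.20 ± 0.10 in ptges-KO cells (adjusted p = 0.154). With trends in length and GC content removed it was called lower in ptges-KO cells, at -0.27 ± 0.07 (limma, adjusted p = 0.0103). Without ptgs1-KO 3, ptgs2-KO 1 and ptges-KO 1 it was called higher in ptgs2-KO cells, at 0.29 ± 0.07 (adjusted p = 0.0201). The gene lies on the minus strand at chr3:105942698-105960099, and of its stretches of 50 bases 23.2% occur in other genes, most in Gm12231.

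Atp5f1 in ptges-KO cells lay between the other knockouts. It was lower than in ptgs2-KO cells, at -0.41 ± 0.10 (limma, adjusted p = 0.014), and higher than in ptgs1-KO cells, at 0.36 ± 0.10 (adjusted p = 0.015). The first was lost without ptgs2-KO 2 (-0.36, adjusted p = 0.0592) and the second without ptgs1-KO 3, ptges-KO 2 or ptges-KO 3 (0.29 to 0.34, adjusted p of 0.0522 to 0.062).

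**Figure D5:**
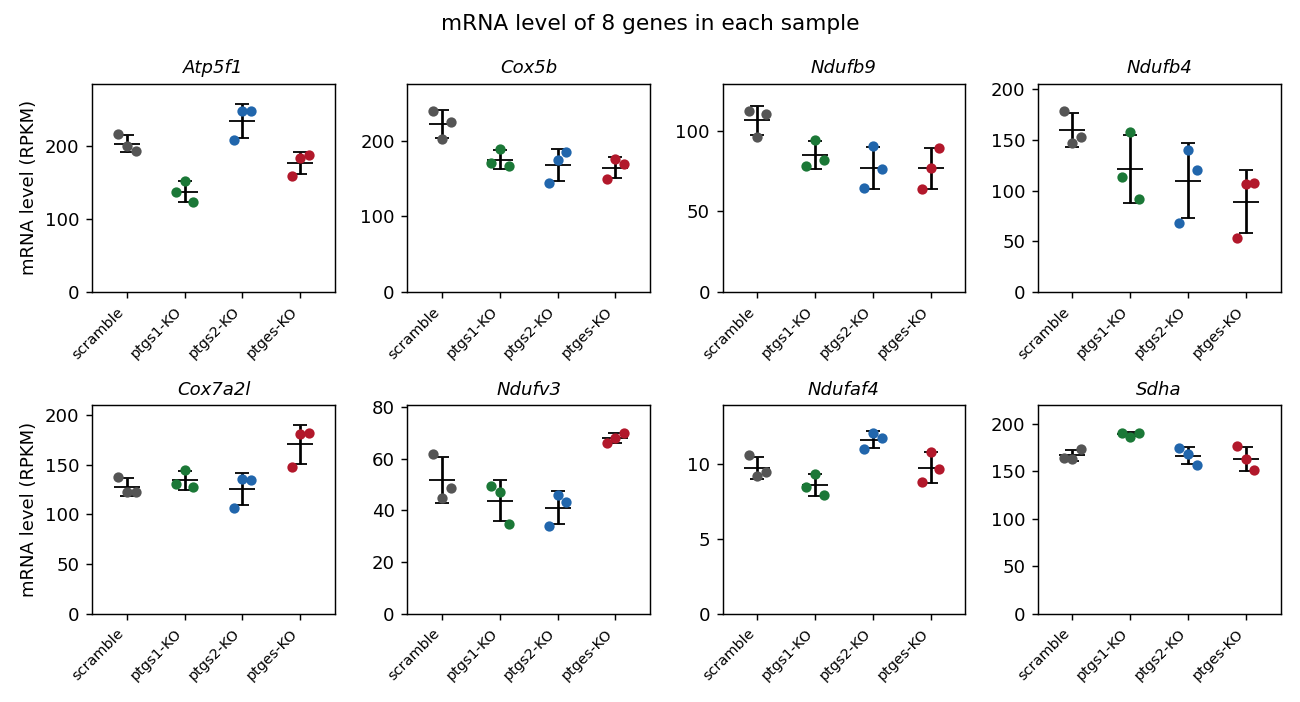
The mRNA level in RPKM of 8 genes is shown for each sample as a point, by line on the x axis, with the mean and SD of the 3 samples in black. Cox5b lies below scramble in all 9 knockout samples, Atp5f1 is lowest in ptgs1-KO, and Ndufv3 and Cox7a2l are highest in ptges-KO cells.

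The small subunits Atp5d and Atp5e of the rotor of complex V were called between knockouts. Atp5d, the delta subunit, stood at 269.8, 243 and 259 RPKM in ptges-KO and at 183, 219 and 227 in ptgs2-KO cells, with 234 to 247 in scramble and 202 to 242 in ptgs1-KO cells. The difference of 0.30 ± 0.10 between ptges-KO and ptgs2-KO cells (limma, adjusted p = 0.0468) was kept only without ptgs1-KO 1, ptgs1-KO 3 or ptgs2-KO 3 and otherwise was 0.21 to 0.34 with adjusted p of 0.0543 to 0.186. With the replicate block it was lost too (adjusted p = 0.0594). With trends in length and GC content removed Atp5d was called higher in ptges-KO cells than in scramble as well, at 0.29 ± 0.08 (adjusted p = 0.0117). Atp5e, the epsilon subunit, stood at 34.2, 48.2 and 52.3 RPKM in ptgs2-KO and at 68.2, 55.5 and 65.0 in ptgs1-KO cells, with 58.2 to 69.3 in scramble and 47.5 to 73.2 in ptges-KO cells. Its difference of -0.50 ± 0.17 between ptgs2-KO and ptgs1-KO cells (limma, adjusted p = 0.0483) was kept only without ptgs1-KO 2, ptgs2-KO 3, ptges-KO 1 or ptges-KO 3 and otherwise was -0.56 to -0.32 with adjusted p of 0.0549 to 0.173. Atp5s was the least abundant gene of the group at 2.98 to 6.32 RPKM.

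The genes for the identical mature subunit c, Atp5g1, Atp5g2 and Atp5g3, were all expressed but in unequal amounts. Atp5g2 ranged from 276 to 496 RPKM, Atp5g3 from 295 to 379 and Atp5g1 from 61.8 to 97.6 RPKM. None was called with all samples. Atp5g2 and Atp5g1 share 87.4% and 66.0% of their stretches of 50 bases with other genes, so their levels are uncertain. In all, 38 of the 91 genes share at least 1 such stretch with another gene or pseudogene, 22 at least 10% and 6 at least 50%.

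Between knockouts, 4 of the 83 genes differed between ptges-KO and ptgs2-KO cells (4.82%, where 16.6% of all genes did), 7 between ptges-KO and ptgs1-KO cells (8.43%, where 30.2% did) and 3 between ptgs2-KO and ptgs1-KO cells (3.61%, where 23.6% did). The split was 3 higher and 1 lower (all genes, 6.76% and 9.84%), 6 higher and 1 lower (13.2% and 17.0%), and 2 higher and 1 lower (12.1% and 11.6%). The medians of the log2 fold changes were 0.11, 0.06 and -0.02, and those over all genes -0.03, -0.04 and 0. Without ptgs2-KO 1 and ptges-KO 1 the counts were 4, 22 and 11, of which 3, 7 and 2 were also called with all samples, where 12.7%, 34.8% and 24.3% of all genes were called. Without ptgs1-KO 3 too they were 6, 21 and 9 (all genes, 17.6%, 38.6% and 26.5%). Single samples moved these counts as well. Between ptges-KO and ptgs1-KO cells the count was 1 without ptgs1-KO 3, ptges-KO 2 or ptges-KO 3, 3 without ptgs1-KO 1, 4 without scramble 2, scramble 3 or ptgs2-KO 3, and 14 without ptges-KO 1. Over all genes it was 3309, 2298, 2476, 2761, 3257, 3232, 3304 and 3566 in that order, against 3409 with all samples. For ptges-KO against ptgs2-KO, 2 of the 83 genes were called without ptgs2-KO 2, ptges-KO 2 or ptges-KO 3. Calls over all genes fell there as well, to 1320, 1104 and 1193 in that order, against 1873 with all samples. With all samples, none of the 83 genes had effects against scramble that passed in opposite directions in 2 knockouts. Without ptgs1-KO 3, ptgs2-KO 1 and ptges-KO 1, Atp5f1 did so, at -0.49 in ptgs1-KO and 0.29 in ptgs2-KO cells (limma, adjusted p = 0.00131 and 0.0201). With trends in length and GC content removed Ndufa8 did so, at -0.22 and 0.21 in the same lines (adjusted p = 0.0433 and 0.0476).

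Over the 6 comparisons 16 genes made 24 calls, 12 of them negative. Of the 24, 6 were kept whichever sample was left out, namely those of Atp5f1 in ptgs1-KO against scramble and in ptgs2-KO against ptgs1-KO, Cox5b in ptges-KO against scramble, Ndufaf4 in ptgs2-KO against ptgs1-KO, and Ndufv3 in ptges-KO against each other knockout. The other 18 were lost without at least 1 sample, and none changed sign.

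The transcripts made from mitochondrial DNA, which code for the subunits that the nucleus does not, were found in the table by their descriptions after it was seen. They were Cox2, Atpase6, Cytb, AK018753 and AK163440, where Cox2 is subunit II of complex IV and not the enzyme COX-2. Together they held 7.04% of the summed values in ptgs1-KO 3 and 7.77% in ptges-KO 1, the lowest shares, and 11.1% in scramble 2, the highest. None was called in any comparison. Their medians of log2 fold change against scramble were -0.27 in ptgs1-KO, -0.01 in ptgs2-KO and -0.30 in ptges-KO cells. In ptges-KO cells all 5 lay below scramble without overlap, as did 23.0% of all genes, Cox2 for one at 25412, 28482 and 28407 RPKM against 33351, 33903 and 32925 RPKM.

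The subunits and carriers that the name rule leaves out, Cyc1, Cycs, Usmg5, 2010107E04Rik and Atpif1, showed no call against scramble cells. Cycs, which is cytochrome c, was higher in ptgs2-KO than in ptgs1-KO cells by 0.47 (limma, adjusted p = 0.0446), and Atpif1, an inhibitor of the ATP synthase, was higher in ptges-KO than in ptgs1-KO cells by 0.65 (adjusted p = 0.0379). Of 24 assembly factors outside the rule, 1 was lower in ptgs1-KO, 1 higher in ptgs2-KO, and in ptges-KO cells 1 higher and 2 lower. These are 4.17%, 4.17% and 12.5% of the list, below the 9.26%, 11.1% and 26.3% of all genes. Acad9, which assembles complex I, was the one that moved in every line. It stood at 34.0, 32.3 and 35.4 RPKM in scramble, 30.0, 28.8 and 26.6 in ptgs1-KO, 43.6, 41.9 and 40.9 in ptgs2-KO, and 40.8, 39.3 and 38.8 in ptges-KO cells. None of the knockouts overlapped scramble, and ptgs1-KO lay on the other side of it than ptgs2-KO and ptges-KO. Its log2 fold changes were -0.25, 0.31 and 0.22 (limma, adjusted p = 0.0497, 0.0153 and 0.0383). The copper chaperone Cox17 of complex IV was lower in ptges-KO cells, at -0.65 (adjusted p = 0.0116), and Atpaf1 of complex V at -0.29 (adjusted p = 0.0418).

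Among 14 regulators tested, Gabpa, the DNA-binding part of GABP, was higher in ptgs2-KO and ptges-KO cells by 0.46 and 0.51 (limma, adjusted p = 0.0413 and 0.013), and Tfam, which packs mitochondrial DNA, was higher in ptges-KO cells by 0.26 (adjusted p = 0.0343). Polrmt, the mitochondrial RNA polymerase, was lower in the same lines, at -0.40 and -0.53 (adjusted p = 0.0217 and 0.00205), and Polg, the mitochondrial DNA polymerase, was lower in ptges-KO cells, at -0.41 (adjusted p = 0.00519). No regulator was called in ptgs1-KO cells. The calls were 2 of 14 (14.3%) in ptgs2-KO and 4 of 14 (28.6%) in ptges-KO cells, near the 11.1% and 26.3% of all genes. Of 16 genes of pyruvate dehydrogenase and the TCA cycle ptges-KO cells had 5 higher and 1 lower, with Idh3g at 0.53 (adjusted p = 0.00409), Pdha1 at 0.43 (adjusted p = 0.000749) and Idh3a at 0.30 (adjusted p = 0.0145) against Ogdh at -0.33 (adjusted p = 0.0147). That is 37.5% of the list, where 26.3% of all genes differed, 11.9% higher and 14.4% lower. In ptgs1-KO cells 1 was lower, Mdh2, and in ptgs2-KO cells 1 was higher, Idh3a. Each is 6.25% of the list, where 9.26% and 11.1% of all genes differed.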

How the data were processed

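RNA-seq of 12 samples, 3 per line, was analysed from a deposited table of 30705 gene names. Per the labels, reads were 101 bases long and paired. The labels name both a TruSeq and a NEXTflex directional kit, and whether strand was used in counting is not given in the sources used here, nor are the aligner and the counter. The values, RPKM in the account of the authors, were taken as deposited, and the submitters' processing notes name the build mm10. No per-sample column was left unused (0).

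Genes averaging 1 RPKM or more were tested on log2(RPKM + 1), so fold changes of low genes are understated, by limma 3.58.1 in R 4.3.3 with a trended prior, all 4 groups in 1 fit and Benjamini-Hochberg adjustment over 11282 genes at 0.05. Groups were taken from the labels. Same-numbered samples of ptgs2-KO and ptges-KO deviated together (correlations 0.566, 0.112 and 0.254), a hint from the data, since the samples are different subclones. Those of ptgs1-KO and ptgs2-KO did so more weakly (0.0575, 0.278 and 0.0525). The hint is limited, since ptgs2-KO 2 with ptges-KO 3 gave 0.321 and ptgs2-KO 3 with ptges-KO 2 gave 0.219. Between ptgs2-KO and ptges-KO, pairs of unlike number that held ptgs2-KO 1 or ptges-KO 1 gave -0.475 to -0.277. The steps were tested on simulated data. Relative depth came from 101 genes, of whose low values 90.4% lay within 0.15 reads of 1 read. Positions, lengths and shared stretches of 50 bases came from GENCODE transcripts of GRCm38, with 94.6% of tested genes annotated, and trends in length and GC content were removed by loess with a span of 0.3. Promoters came from RefSeq on GRCm38.p6. Figures were drawn with matplotlib 3.10.9.

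The genes and gene lists were chosen with earlier results of these data known. Named with values were the highest and lowest tested gene of each complex, the called genes of each comparison up to 5 rises and 5 falls, isoform pairs, genes under the filter, the targeted genes, and up to 3 called genes per direction of the other lists, apart from an item that is not reported here. Alternatives changed the pseudocount (0.1), the filter (none, or a mean of 10), the scaling (median ratio, quantile, the 20 highest genes removed), the prior, the length and GC correction, the replicate block, and the samples.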

Additional observations from a re-analysis of the deposited data

Results flagged for a closer look

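Effects that differ between knockouts were taken for a closer look, each being a tested difference between 2 lines by limma with Benjamini-Hochberg adjustment. Between ptges-KO and ptgs2-KO cells these were Ndufv3 at 0.73, Cox7a2l at 0.44, Atp5d at 0.30 and Atp5f1 at -0.41 on the log2 scale. Between ptges-KO and ptgs1-KO cells they were Ndufv3 at 0.64, Ndufaf2 at 0.61, Ndufb5 at 0.49, Atp5f1 at 0.36, Cox7a2l at 0.34, Sdhd at 0.22 and Sdha at -0.22. Between ptgs2-KO and ptgs1-KO cells they were Atp5f1 at 0.77, Ndufaf4 at 0.40 and Atp5e at -0.50. Of these 14, those of Ndufv3 and the difference in Atp5f1 between ptgs2-KO and ptgs1-KO cells held in all 25 alternatives tried, and that of Ndufaf4 in the 24 that tested it. Groups of 3 samples are too small for a search for single outlying values.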

How the results depend on the processing

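Counts are given in the order ptgs1-KO, ptgs2-KO and ptges-KO against scramble, where all samples gave 1, 4 and 5, then ptges-KO against ptgs2-KO (4), ptges-KO against ptgs1-KO (7) and ptgs2-KO against ptgs1-KO (3), and only those that moved by over 1.5 times are named. Over all genes tested, all samples gave 1045, 1257, 2969, 1873, 3409 and 2665 calls. With length and GC trends removed the counts of the 83 genes were 8, 7, 11, 8, 18 and 12. These are 9.64%, 8.43%, 13.3%, 9.64%, 21.7% and 14.5%, below the 19%, 22%, 37.2%, 26.1%, 38.7% and 36.1% of all genes. With the replicate block as well the counts were 7, 8 and 13 against scramble (all genes, 2031, 2412 and 4146). They were 17 for ptges-KO and 12 for ptgs2-KO against ptgs1-KO (all genes, 4295 and 4005). The replicate block alone gave 3 in ptgs1-KO cells (all genes, 1105). Over the 18 pairs of samples with the same number the correlation of deviations was 0.0123 on average (-0.341 to 0.566), so the numbers do not pair the samples over all lines. Between ptgs2-KO and ptges-KO cells alone all 3 correlations were above 0.1. There the replicate block ended the call of Atp5d and gave 3 in place of 4 (all genes, 2011 in place of 1873). Without a filter the counts were 2, 1 and 3 against scramble and 3 for ptges-KO against ptgs1-KO (all genes, 1185, 1311, 3005 and 3541). With quantile normalization they were 2, 7 and 8 against scramble (all genes, 1570, 1791 and 3476). With the 20 highest genes removed they were 2 in ptgs1-KO, 13 in ptges-KO and 3 for ptges-KO against ptgs1-KO cells (all genes, 1262, 3485 and 4033). Without a trended prior they were 2 in ptgs2-KO cells and 3 for ptges-KO against ptgs1-KO cells (all genes, 1172 and 3341). With only the 2 groups compared they were 6 in ptgs1-KO cells and 2 for ptges-KO against ptgs2-KO cells (all genes, 836 and 1487).

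In the alternatives chosen after the data were seen, the counts without ptgs2-KO 1 and ptges-KO 1 were 15, 2 and 8 against scramble and 22 and 11 for ptges-KO and ptgs2-KO against ptgs1-KO, and without ptgs1-KO 3 as well 11, 9, 10, 21 and 9. Leaving out 1 sample in turn gave 1 to 4, 0 to 8, 1 to 9, 2 to 6, 1 to 14 and 2 to 4. Over all genes it gave 645 to 1163, 722 to 1559, 1936 to 3282, 1104 to 2236, 2298 to 3566 and 2004 to 2840. Where an alternative left fewer samples, the spread was pooled over all lines. The median of complex III was -0.14 in ptgs2-KO and -0.01 in ptges-KO cells in both of these alternatives, and -0.50 to -0.14 and -0.35 to -0.01 with 1 sample left out. That of complex IV in ptgs2-KO cells was -0.10 with length and GC trends removed, with or without the replicate block, and -0.46 to -0.19 with 1 sample left out. No tested call changed sign. Medians between knockouts crossed 0 for several complexes, with a range of -0.04 to 0.24 over the 83 genes between ptges-KO and ptgs2-KO cells. Apart from single samples left out, no alternative ended the calls of Atp5f1, Cox5b, Ndufv3 and Ndufaf4, of Cox7a2l against scramble or of Ndufb9 in ptges-KO cells, while each other call was lost in at least 1, that of Sdhd in 9. The causes were not tested.

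Of all genes called in ptges-KO against scramble, 45.2% were higher, against 54.5% with median ratio scaling, 53.8% with quantile normalization and 30.8% with the 20 highest genes removed. Against ptgs2-KO these shares were 40.7%, 51.7%, 46.6% and 28.4%, and against ptgs1-KO 43.8%, 53.7%, 52.4% and 30.2%. With the 20 highest removed the median of all genes was -0.11 between ptges-KO and ptgs1-KO cells. Absolute depth is unknown, and 3 samples a line limit what can be told apart.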

Other observations

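Genes of the mitochondrial and cytosolic ribosomes were measured beside the respiratory chain, from lists chosen with earlier results known. Of 76 mitochondrial ribosomal proteins, 1 was lower in ptgs1-KO cells, 2 were higher in ptgs2-KO cells, while 4 rose and 1 fell upon loss of ptges (limma, Benjamini-Hochberg), with medians of -0.18, -0.07 and -0.01 on the log2 scale. Mrpl9, of the large subunit, was called in each, at -0.37 in ptgs1-KO, 0.25 in ptgs2-KO and 0.40 in ptges-KO cells. Mrps9, of the small subunit, was at 0.47 in ptges-KO cells, and Mrps18b at -0.32. These are 1.32%, 2.63% and 6.58% of the list, where 9.26%, 11.1% and 26.3% of all genes differed. Between ptges-KO and ptgs1-KO cells 11 were higher and 0 lower, 14.5% of the list, where 30.2% of all genes differed, 13.2% higher and 17.0% lower. Of 76 cytosolic ribosomal proteins tested, 16 were higher in ptges-KO cells and 0 lower, 21.1% of the list against 26.3% of all genes (11.9% higher and 14.4% lower), with a median of 0.23, while 0 passed in ptgs2-KO cells, with a median of -0.22, and 1 was lower in ptgs1-KO cells, with a median of -0.06. Most of these mRNAs are short, and the part of the length trend in these counts was not tested.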
